A study of Mus musculus with 6 samples.

Results

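Transcript levels of 7 genes of cholesterol synthesis and its control were compared in the prefrontal cortex (PFC) of mice. The genes were Srebf2 and Insig1, which govern the pathway, and Hmgcs1, Idi1, Fdft1, Sqle and Dhcr7, which encode enzymes of it. They were taken by symbol from the 54429 genes of the count files, each symbol matched 1 row, and all 7 passed the filter on low counts that left 20409 genes for testing. Total RNA of PFC lysate had been depleted of ribosomal RNA and sequenced in 6 libraries, 2 for each of 3 groups of mice aged 6 months. WT mice were of the C57BL/6 x C3H background and received vehicle. Tau mice carried the PS19(P301S) transgene and also received vehicle. UNC mice were PS19(P301S) animals injected with UNC0642, an inhibitor of the histone methyltransferases EHMT1 and EHMT2 that deposit the repressive mark H3K9me2. The study's methods gave the dose as 1 mg/kg once daily for 3 days, with experiments 24 h after the last injection. The PS19 transgene expresses human mutant tau from the mouse prion protein (Prnp) promoter, which is active in many cell types of the brain and not in neurons alone.

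The mature brain makes nearly all of its own cholesterol, because lipoproteins of the blood do not cross the blood-brain barrier, and myelin holds most of it. Acetyl units are joined to HMG-CoA, reduced to mevalonate, converted to isoprenoids and then to squalene, which is oxidised, closed into a ring and trimmed to cholesterol. When sterols run low in the endoplasmic reticulum, the precursor of SREBP2 leaves with its escort SCAP, is cleaved, and its released domain enters the nucleus to switch on genes of the whole route. When sterols are plentiful, INSIG1 holds SCAP and SREBP2 back. Transcripts of the route therefore commonly rise and fall together in cultured cells, and Srebf2 and Insig1 are themselves targets of SREBP2.

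Levels are given as CPM, the counts of a gene relative to the library total after scaling by TMM. Differences are log2 fold changes ± SE, with the fold changes from edgeR's quasi-likelihood test across all 20409 genes. The SE was derived as the absolute log2 fold change divided by the square root of that test's F statistic. A gene is said to have risen or fallen where its unadjusted p was under 0.05 and its fold change at least 1.2, which is the threshold of the study's methods. None of the 7 genes reached an adjusted p under 0.05 in any of the 3 comparisons, and their smallest adjusted p was 0.222. The libraries held 17005664 to 28972176 counts, and the 7 genes had between 99 and 10058 counts in a library.

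Several features of the libraries bear on every comparison. Prnp, whose promoter drives the transgene, stood at 1652 CPM in the library labelled WT replicate 1, within the 1470 to 1694 CPM of the 4 transgenic libraries, and at 873 CPM in WT replicate 2. The counted sequence of Prnp may include part of the transgene, so this value goes against the label of the library labelled WT replicate 1, and comparisons with WT are given with and without it. Xist was high in WT replicate 2 and both Tau libraries, whereas Y-linked Ddx3y was high in the library labelled WT replicate 1 and both UNC libraries. Sex and UNC0642 treatment therefore cannot be told apart between Tau and UNC mice. Nor can sex and group be told apart between UNC and WT mice once the library labelled WT replicate 1 is left out. A term for sex would be set only by the gap between WT replicate 2 and the library labelled WT replicate 1, 1 library each, so it gives no separate test of this. The summed level of 10 oligodendrocyte markers was 5794 CPM in Tau replicate 2 and 1526 to 3093 CPM in the other 5 libraries, and that of 5 striatal markers was 149 CPM against 59.3 to 71.6 CPM. The cortical markers Slc17a7 (846 to 1016 CPM) and Tbr1 were present in all 6 libraries.

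The promoters of 4 genes are shown because the pathway's shared control acts through short elements in them, from 250 bases before to 50 bases after the annotated start (RefSeq, GRCm38.p6, all on the + strand). Capitals mark matches to the sterol regulatory element, to that element without its last letter, and to the inverted CCAAT box on either strand.
Hmgcs1, chr13:119690101-119690400: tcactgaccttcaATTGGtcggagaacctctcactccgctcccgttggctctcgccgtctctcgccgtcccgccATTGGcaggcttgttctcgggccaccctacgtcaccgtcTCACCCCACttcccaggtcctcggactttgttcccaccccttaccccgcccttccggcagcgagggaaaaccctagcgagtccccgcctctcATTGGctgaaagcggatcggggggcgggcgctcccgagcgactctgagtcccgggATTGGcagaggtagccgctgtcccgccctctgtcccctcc
Srebf2, chr15:82147019-82147318: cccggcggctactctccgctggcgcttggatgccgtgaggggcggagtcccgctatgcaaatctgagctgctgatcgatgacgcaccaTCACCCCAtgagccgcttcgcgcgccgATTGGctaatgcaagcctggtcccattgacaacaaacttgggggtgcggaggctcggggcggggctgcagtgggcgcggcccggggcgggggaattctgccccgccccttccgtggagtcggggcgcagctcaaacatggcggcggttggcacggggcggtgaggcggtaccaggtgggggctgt
Insig1, chr5:28071162-28071461: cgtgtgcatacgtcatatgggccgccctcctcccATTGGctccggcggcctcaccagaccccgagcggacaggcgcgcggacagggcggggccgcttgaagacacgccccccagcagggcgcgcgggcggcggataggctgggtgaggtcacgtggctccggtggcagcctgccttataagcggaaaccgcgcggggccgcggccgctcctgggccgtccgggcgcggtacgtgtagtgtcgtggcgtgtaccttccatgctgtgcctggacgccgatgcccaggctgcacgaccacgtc
Dhcr7 start 3, chr7:143829964-143830263: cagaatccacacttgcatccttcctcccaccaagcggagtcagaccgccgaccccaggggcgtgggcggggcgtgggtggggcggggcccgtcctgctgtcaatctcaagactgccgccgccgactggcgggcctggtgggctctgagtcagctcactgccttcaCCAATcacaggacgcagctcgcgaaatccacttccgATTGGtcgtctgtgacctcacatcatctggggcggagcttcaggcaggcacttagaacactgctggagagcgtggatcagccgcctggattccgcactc
The sterol regulatory element, searched as TCACNCCAC on both strands, was matched by 1.24% of 32851 promoters in the table, and among the members with an entry only Hmgcs1 held it, at position -137 from its start. TCACNCCA, the same letters without the last, was chosen after the sequences had been seen and matched 4.36% of all promoters, and the Srebf2 window held it at position -162. The inverted CCAAT box ATTGG, bound by the factor NF-Y that works beside SREBP2, occurred 4 times in the Hmgcs1 window, 2 times in that of Idi1 (chr13:8885356-8885655), 2 times at start 3 of Dhcr7 and 1 time each for Insig1 and Srebf2, and 37.4% of all promoters held at least 1. The other 2 Dhcr7 starts held none. A match describes letters in these windows and not binding. Sqle and Fdft1 had no entry in the table.

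Srebf2 (chr15:82147181-82205379, + strand) encodes SREBP2, the transcription factor of the pathway. Its level was 135 CPM in the library labelled WT replicate 1, 162 CPM in WT replicate 2, 156 and 140 CPM in Tau replicates 1 and 2, and 127 and 121 CPM in UNC replicates 1 and 2. WT and Tau libraries overlapped, whereas both UNC libraries lay below all 4 others. The difference between Tau and WT was 0.00 ± 0.10 (edgeR adjusted p = 0.998) and -0.13 without the library labelled WT replicate 1. UNC against Tau gave -0.26 ± 0.10 (edgeR adjusted p = 0.499) and UNC against WT -0.26 ± 0.10 (edgeR adjusted p = 0.336). Both had an unadjusted p under 0.05 and were just short of a 1.2-fold change. Without the library labelled WT replicate 1 the difference between UNC and WT was -0.39. The WT library left then held Xist and both UNC libraries Y-linked transcripts. Without WT replicate 2 the difference was -0.12. All libraries left in that comparison held Y-linked transcripts, and the only WT library among them was the one whose label is in doubt. Mir33, the microRNA hosted by an intron of Srebf2, had 0 counts in all 6 libraries, and these libraries were not made for RNAs of that size.

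Insig1 (chr5:28071363-28078662, + strand) encodes the retention protein that closes the feedback loop. It was at 83.2 CPM in the library labelled WT replicate 1, 90.8 CPM in WT replicate 2, 90.6 and 100.5 CPM in Tau replicates 1 and 2, and 79.1 and 85.5 CPM in UNC replicates 1 and 2. Tau replicate 1 fell just under WT replicate 2, and both UNC libraries were under both Tau libraries. UNC against Tau gave -0.21 ± 0.09 (edgeR adjusted p = 0.547), with an unadjusted p under 0.05 and a change of less than 1.2-fold. Tau against WT gave 0.13 ± 0.09 (edgeR adjusted p = 0.579) and UNC against WT -0.08 ± 0.09 (edgeR adjusted p = 0.767). These 2 were 0.07 and -0.14 without the library labelled WT replicate 1. Without Tau replicate 2 the difference between UNC and Tau was -0.14, with an unadjusted p over 0.05.

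Hmgcs1 (chr13:119690379-119708260, + strand) encodes cytosolic HMG-CoA synthase, which makes the precursor of mevalonate, and was the most abundant of the 7. Its level was 284 CPM in the library labelled WT replicate 1, 339 CPM in WT replicate 2, 360 and 400 CPM in Tau replicates 1 and 2, and 340 and 330 CPM in UNC replicates 1 and 2. Both Tau libraries were above both WT and both UNC libraries, and the UNC values lay within the span of the WT values except for UNC replicate 1, which slightly exceeded it. Hmgcs1 rose by 21.9% in Tau mice (log2 fold change 0.29 ± 0.09, edgeR adjusted p = 0.305). The rise rested on 2 libraries, since the difference was 0.16 without the library labelled WT replicate 1 and 0.21 without Tau replicate 2, neither past the threshold. UNC against Tau gave -0.18 ± 0.09 (edgeR adjusted p = 0.617) and UNC against WT 0.11 ± 0.09 (edgeR adjusted p = 0.695), the latter -0.02 without the library labelled WT replicate 1.

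Idi1 (chr13:8885501-8892451, + strand) encodes the isomerase that interconverts the 5-carbon isoprenoid units. It was the lowest of the 7, at 5.01 CPM in the library labelled WT replicate 1, 6.01 CPM in WT replicate 2, 5.68 and 6.87 CPM in Tau replicates 1 and 2, and 5.86 and 5.69 CPM in UNC replicates 1 and 2. The groups overlapped in all 3 comparisons. The differences from WT were 0.18 in Tau and 0.07 in UNC mice, and 0.05 and -0.06 without the library labelled WT replicate 1. With 99 to 159 counts in a library its SE was 0.20 to 0.21 on the log2 scale. A processed pseudogene, Gm13502, was identical to the Idi1 transcript over 684 bases and held 1330 counts against 788 for Idi1 over the 6 libraries, so reads may be split between them and the level of Idi1 is uncertain. The sum of the 2 genes ran from 14.0 CPM in the library labelled WT replicate 1 and 15.5 CPM in WT replicate 2 to 16.7 CPM in each Tau library, and the UNC libraries lay below both Tau libraries and overlapped with WT.

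Fdft1 (chr14:63145150-63179578, - strand) encodes squalene synthase, which commits isoprenoids to sterols. Its level was 82.4 CPM in the library labelled WT replicate 1, 81.9 CPM in WT replicate 2, 97.2 and 111.9 CPM in Tau replicates 1 and 2, and 94.2 and 96.8 CPM in UNC replicates 1 and 2. Both WT libraries were lowest, both Tau libraries highest, and the UNC libraries lay between them. Fdft1 rose by 27.1% in Tau mice (0.35 ± 0.09, edgeR adjusted p = 0.222), the largest difference between Tau and WT among the 7. It was 0.35 and past the threshold without the library labelled WT replicate 1, and 0.25, under a 1.2-fold change, without Tau replicate 2. UNC against Tau gave -0.13 ± 0.09 (edgeR adjusted p = 0.71) and UNC against WT 0.22 ± 0.09 (edgeR adjusted p = 0.366), the latter also 0.22 without the library labelled WT replicate 1. The 3′ part of Fdft1 shares 774 bases of transcript with Ctsb on the opposite strand, a lysosomal protease with 64219 counts in all, and the strand setting of the counting was not given in the sources used here. Ctsb was at 455 and 415 CPM in WT, 483 and 490 CPM in Tau and 511 and 501 CPM in UNC libraries, so unlike Fdft1 it was highest in UNC mice. Whether its reads entered the Fdft1 counts was not tested. The processed pseudogene Gm6781 matched the Fdft1 transcript at 97.4% over 1249 bases. It held 1335 counts against 12646 for Fdft1, so reads may be split between them. The sum of the 2 genes was 91.5 and 91.6 CPM in WT, 106.6 and 122.1 CPM in Tau and 104.4 and 107.5 CPM in UNC libraries. In this sum the UNC libraries overlapped with the Tau libraries, and both groups stayed above WT.

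Sqle (chr15:59315077-59331192, + strand) encodes squalene epoxidase, which adds the first oxygen to squalene. It was at 80.0 CPM in the library labelled WT replicate 1, 82.7 CPM in WT replicate 2, 89.6 and 95.3 CPM in Tau replicates 1 and 2, and 76.3 and 76.5 CPM in UNC replicates 1 and 2. The 3 groups did not overlap, with Tau above WT and WT above UNC. Sqle fell by 17.3% from Tau to UNC mice (-0.27 ± 0.08, edgeR adjusted p = 0.418). Without Tau replicate 2 the difference was -0.23, which is under a 1.2-fold change. Tau against WT gave 0.18 ± 0.08 (edgeR adjusted p = 0.393), also under a 1.2-fold change, and UNC against WT gave -0.09 ± 0.08 (edgeR adjusted p = 0.691). Without the library labelled WT replicate 1 these were 0.16 and -0.12, neither past the threshold.

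Dhcr7 (chr7:143823145-143848410, + strand) encodes the reductase of the last step of one arm of the route, which turns 7-dehydrocholesterol into cholesterol. It stood at 17.4 CPM in the library labelled WT replicate 1, 21.3 CPM in WT replicate 2, 17.6 and 22.1 CPM in Tau replicates 1 and 2, and 13.4 and 14.6 CPM in UNC replicates 1 and 2. WT and Tau libraries overlapped, and both UNC libraries lay below all 4 others. Dhcr7 fell by 29.0% from Tau to UNC mice (-0.49 ± 0.16, edgeR adjusted p = 0.432) and by 27.4% from WT to UNC mice (-0.46 ± 0.15, edgeR adjusted p = 0.283), the largest differences of any member. Tau against WT gave 0.03 ± 0.15 (edgeR adjusted p = 0.952), and -0.11 without the library labelled WT replicate 1. Between UNC and Tau the difference was -0.33 without Tau replicate 2 and -0.44 without UNC replicate 1, neither past the threshold. Between UNC and WT it was -0.60 without the library labelled WT replicate 1. The WT library left then held Xist and both UNC libraries Y-linked transcripts. The difference was -0.31 without WT replicate 2. All libraries left in that comparison held Y-linked transcripts, and the only WT library among them was the one whose label is in doubt.

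**Figure D1:**
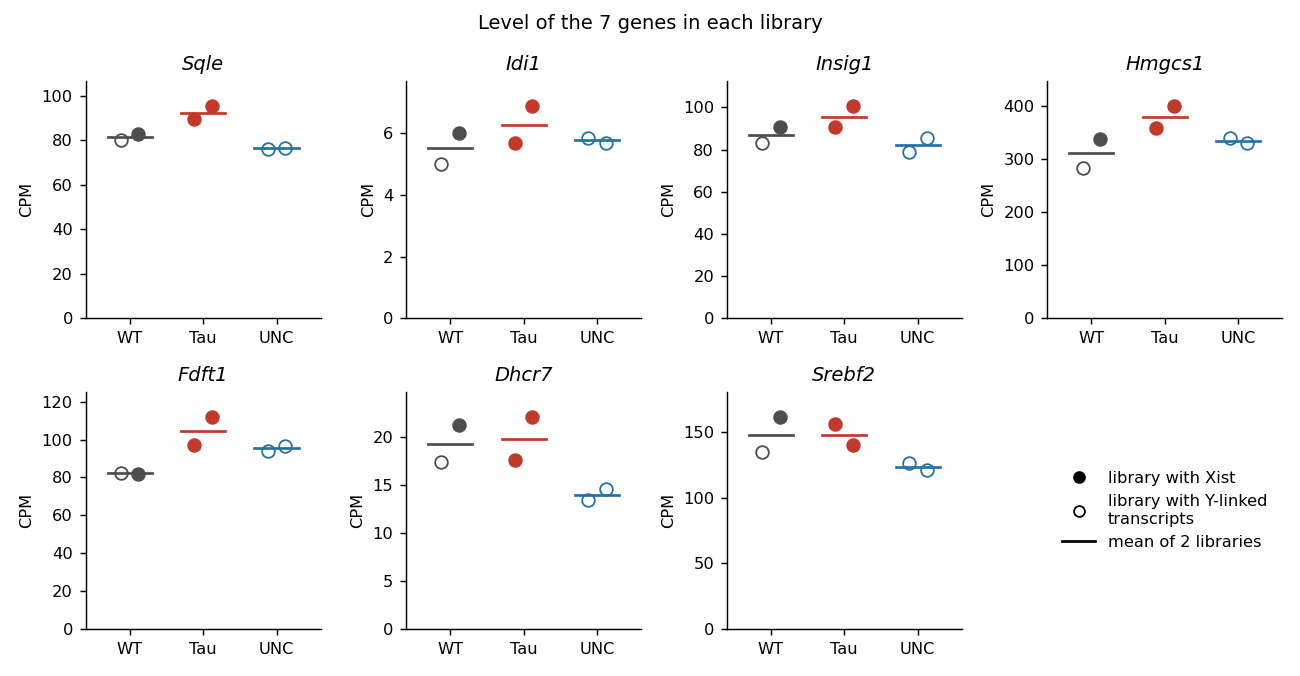
Level of each gene in the 6 libraries, in CPM on axes that start at 0, for WT, Tau and UNC mice. Filled circles are libraries with Xist, open circles libraries with Y-linked transcripts, and bars the mean of 2 libraries. Dhcr7 and Srebf2 are lowest in both UNC libraries, and Fdft1, Hmgcs1 and Sqle are highest in both Tau libraries.

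The first comparison asked which transcripts differ between Tau and WT mice. Fdft1 and Hmgcs1 rose, none of the 7 fell, and the estimates of all 7 were above 0, between 0.00 and 0.35, though with DESeq2 size factors that of Srebf2, and with library size alone those of Srebf2 and Dhcr7, were below 0. These 2 of 7 stand against 9.81% of all genes tested that passed the same threshold in either direction, and with no limit on fold change Sqle joined them, against 12.4%. At an adjusted p under 0.05, which no member reached, stood 0.157% of all genes. Both Tau libraries exceeded both WT libraries for Fdft1, Hmgcs1 and Sqle, and overlapped with them for the other 4 genes, whereas 21.9% of all genes had both Tau libraries above both WT libraries and 21.4% below. The median over the 7 was 0.18, against -0.00 over all genes. Only Fdft1 passed the threshold without the library labelled WT replicate 1 (median 0.07), and none did without Tau replicate 2 (median 0.08). With both of these libraries left out, an alternative chosen after the data had been seen, the median was 0.00 and Dhcr7 stood at -0.27.

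The second comparison asked which transcripts differ between UNC0642-treated and vehicle-treated Tau mice. Sqle and Dhcr7 fell, none rose, and all 7 estimates were below 0, between -0.49 and -0.11. Over all genes 7.69% passed the threshold in either direction, and 4 of the 7 (Sqle, Insig1, Dhcr7 and Srebf2) had an unadjusted p under 0.05 with no limit on fold change, as did 8.86% of all genes, while 0.0196% had an adjusted p under 0.05. Both UNC libraries were below both Tau libraries for every member but Idi1, a pattern that 20.9% of all genes showed, with 20.4% showing the reverse. With the counts of their pseudogenes Gm6781 and Gm13502 added, Fdft1 overlapped and Idi1 did not. The median of the 7 was -0.21, against -0.00 over all genes. Without Tau replicate 2 it was -0.14 and only Srebf2 passed the threshold (-0.34). The Tau libraries are shared with the first comparison, so the opposite signs of the 2 comparisons are not independent of each other. Fdft1 and Hmgcs1, which rose in Tau against WT mice, had differences of -0.13 and -0.18 between UNC and Tau mice. Dhcr7, which was lower in UNC than in Tau mice, differed by 0.03 between Tau and WT mice. Sex and treatment cannot be told apart between UNC and Tau mice.

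The last comparison set UNC0642-treated Tau mice against WT mice. Dhcr7 fell and none of the other 6 passed the threshold, which 9.47% of all genes passed in either direction. Fdft1, Dhcr7 and Srebf2 had an unadjusted p under 0.05 (12.1% of all genes), and 0.216% of all genes reached an adjusted p under 0.05. Both UNC libraries were above both WT libraries for Fdft1 (22.1% of all genes), below them for Sqle, Dhcr7 and Srebf2 (22.3% of all genes), and overlapped with them for Idi1, Insig1 and Hmgcs1. The median of the 7 was -0.08, against -0.01 over all genes. Without the library labelled WT replicate 1 the median was -0.12, Dhcr7 was at -0.60 and Srebf2 at -0.39. The WT library left then held Xist and both UNC libraries Y-linked transcripts, so sex and group cannot be told apart. Without WT replicate 2 Dhcr7 was at -0.31 and Srebf2 at -0.12, and without UNC replicate 1 at -0.40 and -0.29.

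**Figure D2:**
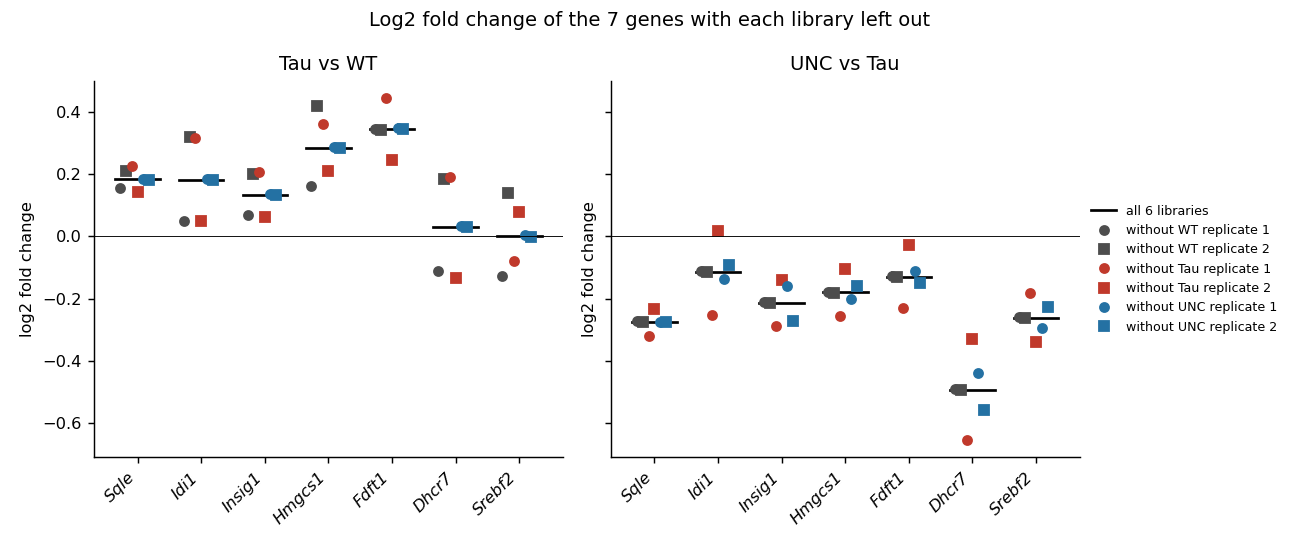
Log2 fold change of each gene between Tau and WT mice (left) and between UNC and Tau mice (right) with all 6 libraries (black bars) and with 1 library left out (circles and squares). Without Tau replicate 2 (red squares) Hmgcs1 and Fdft1 are at 0.21 and 0.25 on the left and Idi1 is at 0.02 on the right.

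The wider pathway was described with 59 further genes in 7 lists that also held the members. Of the 21 enzymes from acetyl-CoA to cholesterol, 4 rose in Tau against WT mice and none fell, where 3.72% of all genes rose and 6.1% fell. Besides Hmgcs1 and Fdft1 these were Msmo1 (0.33 ± 0.08, edgeR adjusted p = 0.201) and Ebp (0.42 ± 0.14, edgeR adjusted p = 0.312), which remove a methyl group from and shift a double bond in the sterol ring. Without Tau replicate 2 only 1 of the 21 enzymes passed, a rise, and without WT replicate 2 the count was 7, of which 6 rose. Without the library labelled WT replicate 1 4 rose, Hmgcs1 no longer among them, with Msmo1 at 0.31 and Ebp at 0.44.

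In UNC against Tau mice 4 of the 21 enzymes fell and none rose, against 3.95% and 3.73% of all genes. Among them beside Sqle and Dhcr7 was Acat2 (-0.31 ± 0.10, edgeR adjusted p = 0.432), which makes the acetoacetyl-CoA that Hmgcs1 uses. Acat2 was at 38.9 and 42.8 CPM in WT, 45.4 and 46.2 CPM in Tau and 37.2 and 36.8 CPM in UNC libraries. The UNC libraries were thus the lowest of the 6 for Acat2. Without Tau replicate 2 or without UNC replicate 1 the count was 2.

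In UNC against WT mice 4 enzymes were higher and 2 lower, against 3.77% and 5.69% of all genes. Pmvk (0.32 ± 0.11), Cyp51 (0.29 ± 0.08), Msmo1 (0.28 ± 0.08) and Ebp (0.46 ± 0.14) rose, with edgeR adjusted p-values between 0.22 and 0.285, while Dhcr7 was among the 2 that fell. Dhcr7 was thus lower in UNC mice than in both other groups, and Msmo1 and Ebp were higher in Tau and in UNC mice than in WT mice. Unlike Msmo1, Ebp did not stay past the threshold with every library left out in turn. It was at 0.31 in Tau against WT mice without Tau replicate 2, and at 0.37 in UNC against WT mice without UNC replicate 1. Without UNC replicate 1 the count fell from 6 to 3, all higher. Without the library labelled WT replicate 1 3 were higher and 2 lower, and Cyp51, at 0.25, no longer passed.

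**Figure D3:**
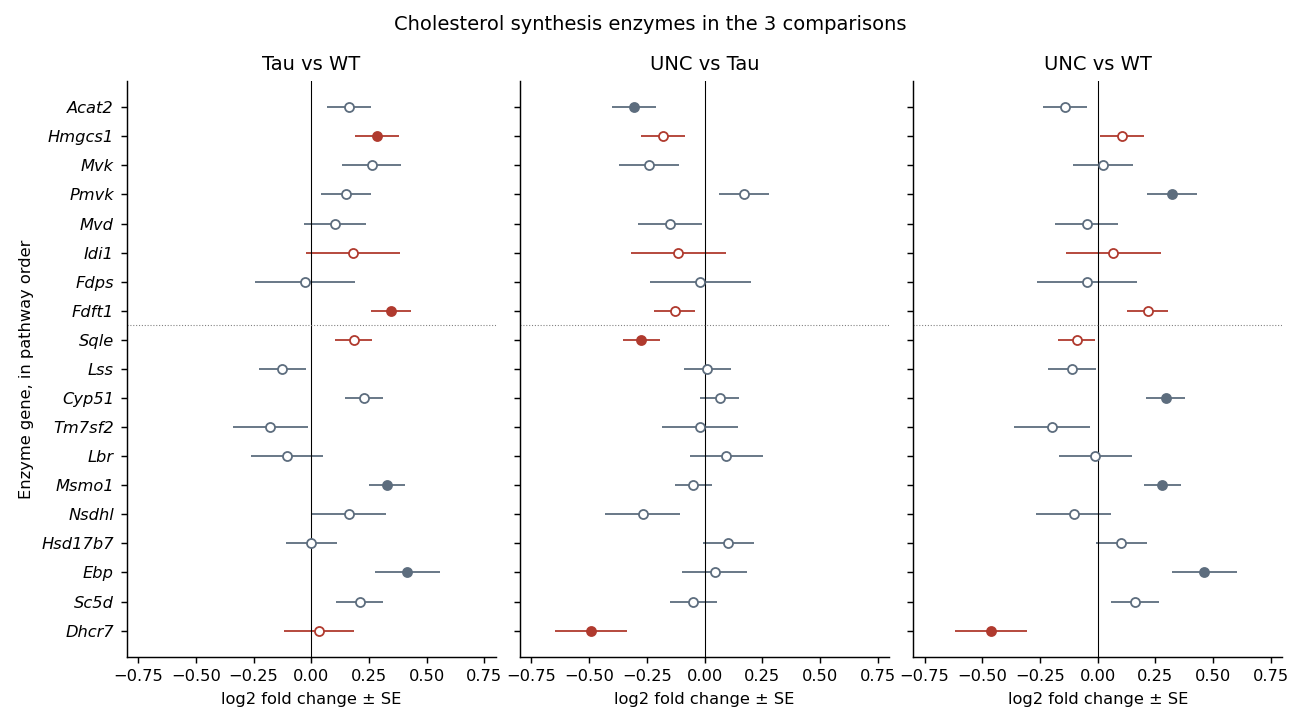
Log2 fold change ± SE of 19 of the 21 enzymes in pathway order in the 3 comparisons, with members in red and filled circles for genes past the threshold. The dotted line parts the steps up to squalene from those after it, and Dhcr7 is lowest at -0.49 and -0.46 in the comparisons that involve UNC mice.

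Beyond the enzymes, the 9 genes of SREBP processing held 1 call in Tau against WT mice, Srebf1 (-0.30 ± 0.12, edgeR adjusted p = 0.371), which encodes the related factor of fatty acid synthesis, and it also fell in UNC against WT mice (-0.42 ± 0.12, edgeR adjusted p = 0.223). None of the 9 passed in UNC against Tau mice. Of 7 sterol uptake and trafficking genes, Stard4, a cytosolic sterol carrier, fell in UNC against Tau mice (-0.34 ± 0.12, edgeR adjusted p = 0.467), and none passed in the other comparisons. Among 11 genes of sterol efflux and oxidation only Abcg4, a neuronal sterol exporter, passed, falling in UNC mice against Tau (-0.36 ± 0.15) and against WT mice (-0.36 ± 0.15). Against Tau the Abcg4 difference was -0.10 without Tau replicate 1 and -0.56 without Tau replicate 2. Among 10 fatty acid synthesis genes, Elovl6 (0.40 ± 0.09) and Me1 (0.29 ± 0.11) rose in Tau against WT mice, and Fasn (-0.28 ± 0.08) fell in UNC against Tau mice. Of 8 genes of the non-sterol branch, Pdss1 fell in Tau against WT mice (-0.37 ± 0.14) and Fnta rose in UNC against WT mice (0.29 ± 0.11). Without WT replicate 2, Me1 was at 0.24 in Tau against WT mice. In UNC against WT mice Fnta was then at 0.18 and Abcg4 at -0.25. Over all 66 genes 6 rose and 2 fell in Tau against WT, none rose and 7 fell in UNC against Tau, and 5 rose and 4 fell in UNC against WT mice. None had an adjusted p under 0.05, and the smallest was 0.187. Without the library labelled WT replicate 1 Srebf1 was at -0.13 in Tau and -0.25 in UNC mice against WT and Pdss1 at -0.33, none past the threshold, while Elovl6 (0.40), Me1 (0.33), Abcg4 (-0.45) and Fnta (0.42) still passed against WT. With each of the 6 libraries left out in turn, Elovl6 and Msmo1 passed every time in Tau against WT, Msmo1 in UNC against WT, and none of the 66 genes called with all libraries in UNC against Tau. The same directions over all genes tested held 3.72% higher and 6.1% lower, 3.73% higher and 3.95% lower, and 3.77% higher and 5.69% lower.

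The 7 profiles were then followed over the libraries, each as log2 CPM centred on its mean of the 6. Their mean was -0.12 in the library labelled WT replicate 1, 0.05 in WT replicate 2, 0.06 and 0.21 in Tau replicates 1 and 2, and -0.11 and -0.09 in UNC replicates 1 and 2. Tau replicate 2 held the highest value of 6 members, and only Srebf2 was highest elsewhere, in WT replicate 2. The share of all genes that were highest in Tau replicate 2 was not counted. That library also had the most oligodendrocyte and striatal marker RNA. The oligodendrocyte marker sum was lowest in WT replicate 2, at 1526 CPM with a mean of 0.05 for the 7 genes. It was 3093 CPM in the library labelled WT replicate 1, where that mean was -0.12. The part of these markers in the levels of the 7 genes was not tested, and in such bulk RNA a change in the number of cells of a type and a change in RNA per cell cannot be told apart.

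Sorted by sex-linked transcripts, the 3 libraries with Xist were all above the 3 with Y-linked transcripts for Sqle (82.7 to 95.3 against 76.3 to 80.0 CPM), Insig1 (90.6 to 100.5 against 79.1 to 85.5 CPM), Dhcr7 (17.6 to 22.1 against 13.4 to 17.4 CPM) and Srebf2 (140 to 162 against 121 to 135 CPM). Hmgcs1, Fdft1 and Idi1 overlapped. Thus 4 of the 7 were separated in this way, against 5.86% of all genes, and none in the opposite way, as 4.7% of all genes were. Both Tau libraries held Xist and both UNC libraries Y-linked transcripts, so this sorting largely repeats the comparison of UNC with Tau. It gives no separate test of sex, and the members were chosen with earlier results known. Of the other 59 pathway genes 7 were separated with the Xist libraries above, Acat2, Stard4 and Fasn among them, and 2 with the Xist libraries below. Sqle and Dhcr7, which fell from Tau to UNC mice, are among the 4 separated members. Their fall and this separation share the Tau and UNC libraries, and the part of sex in their levels was not tested.

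**Figure D4:**
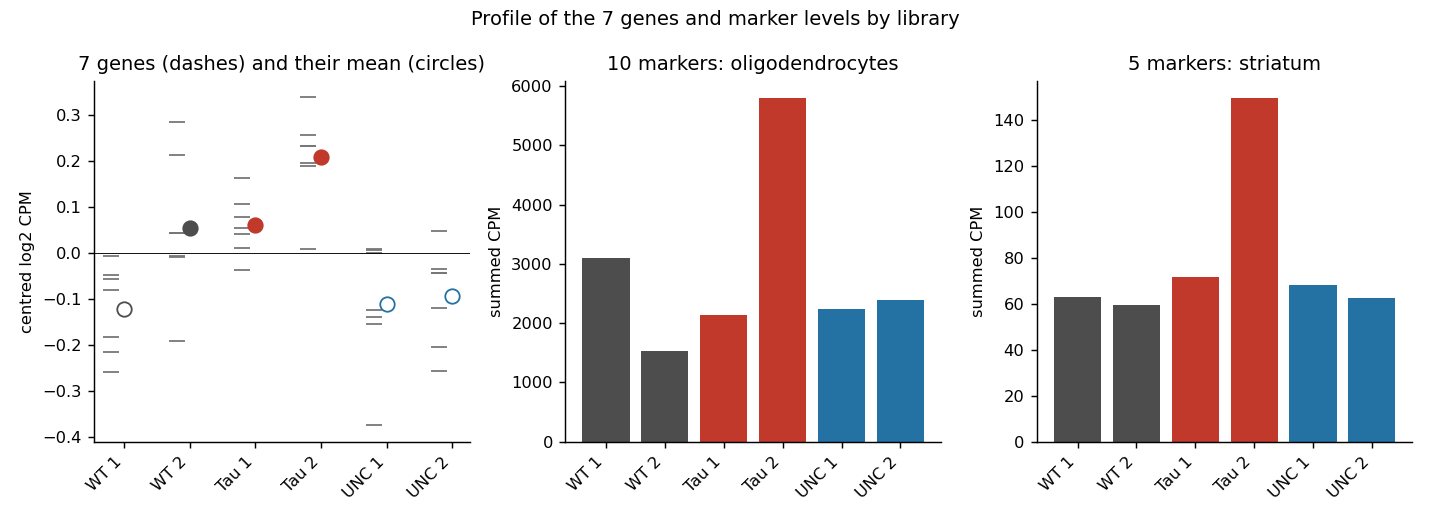
Left, centred log2 CPM of the 7 genes (dashes) and their mean (circles, filled for libraries with Xist) in each library. Middle and right, summed CPM of 10 oligodendrocyte and 5 striatal markers, which reach 5794 and 149 CPM in Tau replicate 2, the library where the mean of the 7 genes is also highest at 0.21.

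Insig1 and Sqle followed the mean of the 7 most closely, with root mean square distances of 0.03 and 0.04 on the log2 scale, and Dhcr7 was farthest at 0.17, followed by Fdft1 and Srebf2 at 0.13 each. Among 3533 other genes with a mean log2 CPM of at least 4 and at least the same range, the most alike over the 6 libraries were Ube2d1 (distance 0.0325), Ddx3x (0.0387), Ccdc66 (0.0408) and Gm9517 (0.0447). Ddx3x, an RNA helicase and the X-linked partner of Ddx3y, was at 362 and 416 CPM in WT, 437 and 457 CPM in Tau and 359 and 363 CPM in UNC libraries. These distances describe 6 points that share their libraries and carry no test.

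Per kilobase of annotated exon, Hmgcs1 was highest in WT mice at 67.8 ± 8.34 CPM (SD, n = 2), followed by Insig1 at 28.1 ± 1.73, Srebf2 at 20.7 ± 2.62, Fdft1 at 19.4 ± 0.0819, Sqle at 14.7 ± 0.349, Dhcr7 at 3.32 ± 0.474 and Idi1 at 1.57 ± 0.203. Neighbours in this order did not overlap, except for Srebf2 and Fdft1 in WT libraries. In Tau and UNC libraries Fdft1 stood above Srebf2, with 24.7 ± 2.46 against 20.7 ± 1.57 CPM per kilobase in Tau and 22.6 ± 0.432 against 17.3 ± 0.554 in UNC mice, and the rest of the order was the same.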

How the data were processed

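The authors isolated total RNA, depleted ribosomal RNA, prepared stranded TruSeq libraries and sequenced them on a HiSeq 2500. Reads were trimmed with Cutadapt and aligned with TopHat2, and the authors deposited 1 file of raw counts per gene for each library, made with featureCounts (build mm10 per the labels). Versions and the strand setting are not given in the sources used here. A spreadsheet had rewritten 26 symbols as dates in 2 of the files, none of them a member's, so rows were matched by position. The label check on WT replicate 1 is given with the results.

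Counts were tested in R 4.3.3 with edgeR 4.0.16 (filterByExpr with a minimum count of 10 and total of 15, TMM, quasi-likelihood test, 1 model of the 3 groups over all 6 libraries with 3 residual degrees of freedom), since the submitters' processing notes name edgeR and the methods give only the threshold. P-values were adjusted by Benjamini-Hochberg over 20409 genes. The biological coefficient of variation was 12.3%. The labels give no litters or batches. P-values rest on a spread between libraries that was pooled over the 3 groups of 2 libraries each and moderated across genes. The members and lists were chosen with earlier results of these data known. Named genes were the 7 members, pathway genes past the threshold in any comparison, 2 further pathway genes, the 5 genes most like the members' mean profile, and marker or check genes where they bear on a result. Some genes under this rule are not reported here. Gene positions are from GENCODE (vM21) (GRCm38), promoters from RefSeq GRCm38.p6, and shared sequence from blastn 2.17.0 with at least 90% identity over 100 bases. Alternatives were other normalisations (DESeq2 1.42.0 size factors, library size), filters, tests (DESeq2, limma 3.58.1 with voom), thresholds, model terms and each library left out. Scripts were tested on simulated data.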

Additional observations from a re-analysis of the deposited data

How the results depend on the processing

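Counts of genes past the threshold are given as Tau against WT, UNC against Tau, and UNC against WT. With all libraries they were 2, 2 and 1 of the 7 members and 4, 4 and 6 of the 21 enzymes. Of all genes 9.81%, 7.69% and 9.47% passed. With an adjusted p under 0.05 as the threshold all 6 counts were 0. With no limit on fold change 4 and 3 members passed in the comparisons that involve UNC mice, as did 8.86% and 12.1% of all genes. With library size alone the members were 1, 1 and 2 and the enzymes 2 in Tau against WT, while 10.6%, 7.52% and 9.87% of all genes passed. With at least 10 counts in every library 2 members passed in UNC against WT, as did 10.2% of all genes. With a term for sex the members were 1, 0 and 0 and the enzymes 1 in UNC against Tau, while 9.21%, 8.05% and 10.1% of all genes passed. The members' median in UNC against Tau was then -0.087. That term is set only by the gap between WT replicate 2 and the library labelled WT replicate 1, whose label is in doubt. It gives no separate test. With 1 library left out the members' medians ranged from 0.07 to 0.23, -0.26 to -0.14 and -0.12 to -0.01 in the same order of comparisons. With the library labelled WT replicate 1 and Tau replicate 2 both left out, chosen after seeing the data, the medians were 0.000501, -0.14 and -0.11. The cause of these shifts was not tested.

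Only members that had not passed the threshold changed sign. Between Tau and WT, Srebf2 was at -3.2e-05 with DESeq2 size factors, -0.068 with library size alone, -0.0041 with no filter, -0.021 with at least 10 counts in every library, -0.0058 with the 2 groups alone, -0.12 with a term for sex, -0.13 to 0.14 with 1 library left out and -0.044 with both libraries left out. Dhcr7 was at -0.035 with library size alone, -0.11 with a term for sex, -0.13 to 0.19 with 1 library left out and -0.27 with both left out, where Idi1 was at -0.077. Between UNC and Tau, Idi1 was at 0.15 and Hmgcs1 at 0.072 with a term for sex, and Idi1 ranged from -0.25 to 0.019 with 1 library left out and was at 0.019 with both left out. Between UNC and WT, Idi1 ranged from -0.061 to 0.21 and Hmgcs1 from -0.016 to 0.24 with 1 library left out, and they were at -0.058 and -0.013 with both left out. Of the values that had passed the threshold, 63 kept their side of it and 17 did not, all in the same direction.

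Same-numbered libraries did not deviate together (correlations -0.034, -0.021 and -0.0033 over 20409 genes), so no pairing by number was seen in these values. Whether same-numbered samples shared a litter or batch is not given. With a replicate block the counts were 2, 2 and 1 members and 4, 4 and 6 enzymes, and no call of a member changed. Of all genes 8.78%, 6.88% and 8.6% then passed. Idi1 and Dhcr7, the members with the fewest counts, had the largest SE, 0.20 to 0.21 and 0.15 to 0.16.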

Other observations

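The antisense gene Gm48342, which overlaps Hmgcs1 and shares 462 bases with its transcript, was at 2.80 and 1.84 CPM in WT, 0.61 and 0.63 CPM in Tau and 1.78 and 2.21 CPM in UNC libraries, from 11 to 71 counts each. It was lower in Tau than in WT mice (log2 fold change -1.90 ± 0.39, adjusted p = 0.139 by edgeR) and higher in UNC than in Tau mice (1.69 ± 0.40, adjusted p = 0.327 by edgeR), opposite in sign to Hmgcs1 in both comparisons. It was singled out after its values had been seen. With the strand setting of the counting not given, reads of Hmgcs1 and Gm48342 cannot be told apart where they overlap.

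Gm49502, a transcript of unconfirmed type that overlaps Srebf2 on the same strand, was at 1.26 and 2.11 CPM in WT, 0.79 and 0.74 CPM in Tau and 0.95 and 1.28 CPM in UNC libraries, from 13 to 54 counts each. Its differences were -1.13 ± 0.43 between Tau and WT and 0.55 ± 0.45 between UNC and Tau mice, with adjusted p-values of 0.348 and 0.764 by edgeR, while Srebf2 itself differed by 0.00 and -0.26.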
